A study of Mus musculus with 16 samples.

Results

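Neutrophils carry their weapons in granules that are filled in a fixed order as the cell matures in the bone marrow. Azurophil granules, loaded at the promyelocyte stage, hold myeloperoxidase and serine proteases. Specific granules follow at the myelocyte and metamyelocyte stages with lactoferrin and the cathelicidin precursor, and gelatinase granules come later still. The calcium-binding pair S100A8 and S100A9 fills much of the cytosol. The genes for these late products are switched on largely by C/EBP-family factors, with C/EBPε needed for the specific granules.

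The 10 late granule and cytosolic genes described here, *Ltf*, *Camp*, *Ngp*, *Lcn2*, *Mmp8*, *Mmp9*, *Retnlg*, *S100a8*, *S100a9* and *Chil3*, were taken by name from 19938 genes on the array. They and the marker lists used below were chosen with earlier results of these data known. Shares of all genes set beside their counts are therefore descriptions, not independent tests. Each of the 10 has 1 probe set that maps to that symbol alone. They were measured in DC progenitors from bone marrow of WT mice and of IkL/L mice, which carry a hypomorphic allele of *Ikzf1* (Ikaros) and keep a small part of functional Ikaros in all cells. Purified CD45.2+ MDPs, the monocyte and DC progenitors, or CDPs, the later progenitors committed to DCs, were cultured for 24 h among unfractionated CD45.1+ WT bone marrow cells with Flt3L-conditioned medium. Cultures received vehicle (DMSO) or the γ-secretase inhibitor Compound E (GSI) at 5 µM, which blocks Notch activation, and CD45.2+ cells were then sorted again for RNA. The 16 arrays, 2 for each of 8 groups, come from 2 mice per condition by the study's account. The labels do not say which arrays share a mouse, so the 8 arrays of a genotype may come from as few as 2 mice. The age of the mice is not given per array. MDP and CDP name the cells put into culture, and the stage of the cells recovered was not measured on these arrays. RNA inputs were very small and were amplified before hybridization.

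Values are log2 signals from RMA, a method that corrects background, scales arrays to one distribution and summarizes the probes. A difference of 1 is a 2-fold change, and signals of different genes are not compared. Sums of signals over a gene list, given below, are read between arrays only. Tests are from limma, in 1 model of the 8 groups over all 16 arrays, with p values adjusted over all 19938 genes and a threshold of 0.05 for a call. P values measure only the spread between the 2 arrays of a group, which may be partly technical. The model took the 16 arrays as independent, although arrays of a genotype may share mice. *Ikzf1* itself lay between 8.90 and 9.20 in WT and between 8.36 and 8.94 in IkL/L arrays, and fell by 0.40 on the log2 scale (adjusted p = 0.00666, limma). Where its probes lie relative to the altered part of the allele is not known, so this checks the labels only weakly. In these bulk samples, more cells that make a product and more of its RNA per cell cannot be told apart.

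Late neutrophil genes were higher in IkL/L progenitors. Averaged over both stages and both treatments, 8 of the 10 genes rose in IkL/L cells, from 1.5-fold for *S100a8* to 14.6-fold for *Ltf*, against 3.85% of all genes called higher. None of the 10 fell. The median log2 change of the 10 was 1.91, and that of all genes was -0.02. In 6 genes (*Ltf*, *Camp*, *Ngp*, *Lcn2*, *S100a8* and *S100a9*) all 8 IkL/L arrays were above all 8 WT arrays, a pattern found in 0.667% of all genes.

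**Figure D1:**
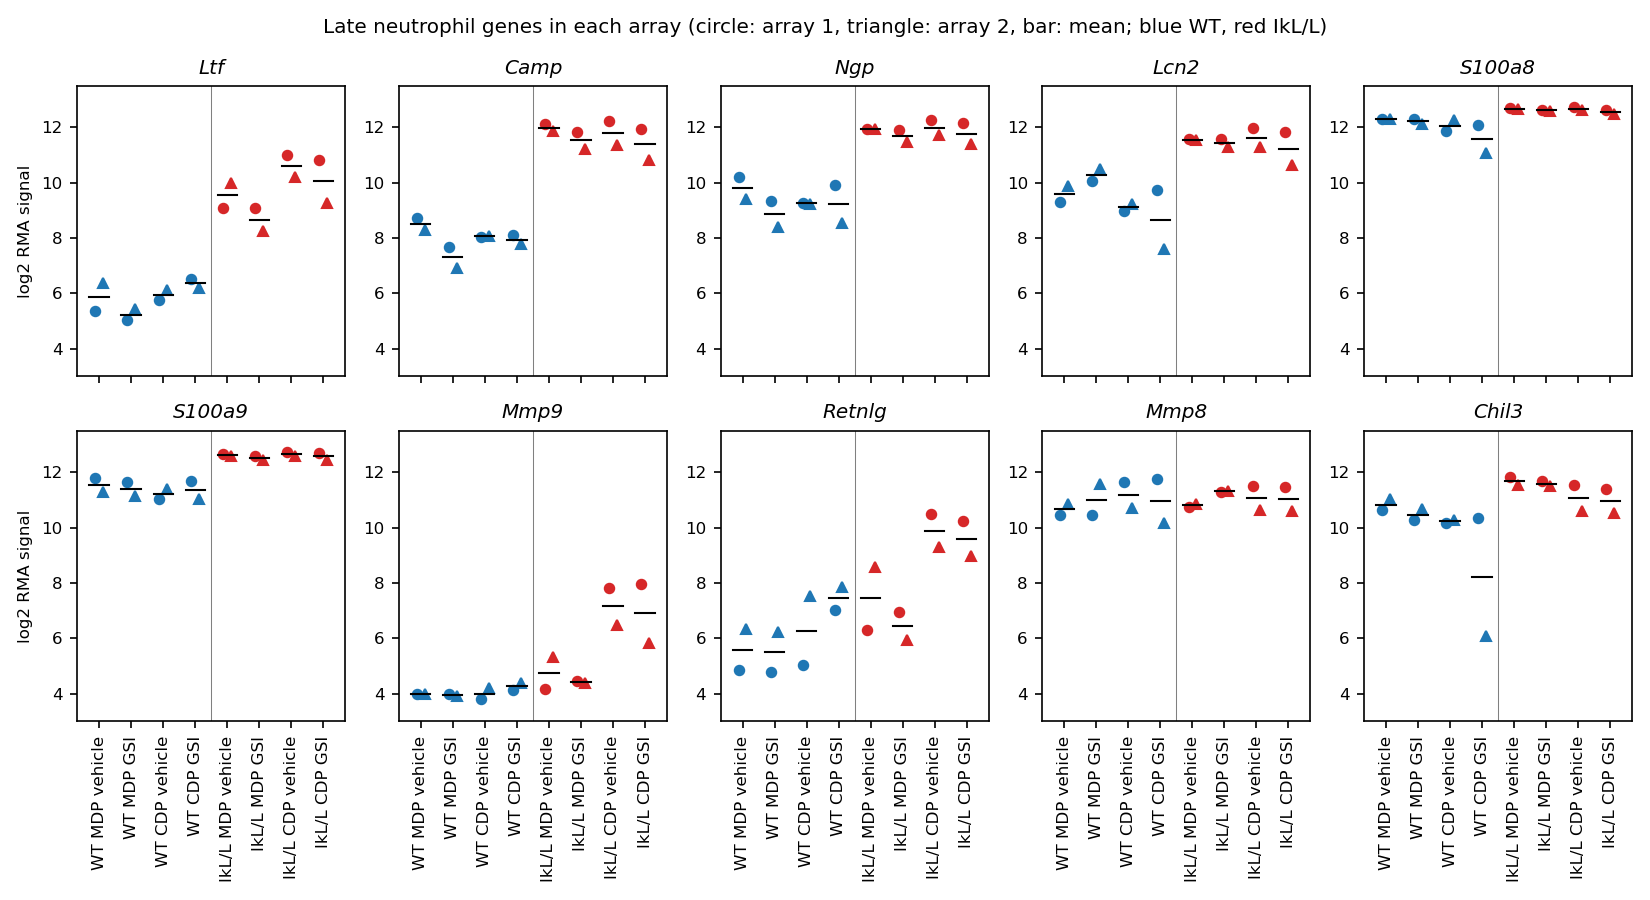
Log2 RMA signal (y axis) of each of the 10 genes in the 8 groups (x axis), with array 1 as a circle, array 2 as a triangle, the group mean as a bar, WT in blue and IkL/L in red. The red points of *Ltf*, *Camp*, *Ngp*, *Lcn2*, *S100a8* and *S100a9* all lie above the blue ones, those of *Mmp9* and *Retnlg* are highest in CDPs, and those of *Mmp8* overlap the blue points.

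*Ltf* encodes lactoferrin, an iron-binding protein that defines specific granules. In WT cells the *Ltf* signals were 5.35 and 6.36 in vehicle-treated MDPs, 5.03 and 5.43 in MDPs with GSI, 5.75 and 6.12 in vehicle-treated CDPs and 6.52 and 6.21 in CDPs with GSI. In IkL/L cells they were 9.09 and 10.00 in vehicle-treated MDPs, 9.08 and 8.24 in MDPs with GSI, 10.997 and 10.20 in vehicle-treated CDPs and 10.82 and 9.28 in CDPs with GSI. The lowest IkL/L array, 8.24, thus stood well above the highest WT array, 6.52. The averaged genotype effect on *Ltf* was 3.87 ± 0.27 (SE) on the log2 scale, or 14.6-fold (adjusted p = 2.93e-05, limma). *Camp* encodes the precursor of the cathelicidin CRAMP, an antimicrobial peptide of specific granules. WT arrays gave *Camp* signals of 8.72 and 8.28 in vehicle-treated MDPs, 7.69 and 6.93 in MDPs with GSI, 8.06 and 8.07 in vehicle-treated CDPs and 8.10 and 7.78 in CDPs with GSI. The IkL/L arrays gave 12.12 and 11.86 in vehicle-treated MDPs, 11.85 and 11.21 in MDPs with GSI, 12.22 and 11.37 in vehicle-treated CDPs and 11.96 and 10.82 in CDPs with GSI. Every IkL/L value was at least 10.82, and no WT value exceeded 8.72. *Camp* rose by 3.72 ± 0.20 (SE) on the log2 scale, or 13.2-fold (adjusted p = 9.79e-06, limma).

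*Ngp* encodes neutrophilic granule protein, a cathelin-related product of specific granules. Its WT signals were 10.22 and 9.41 in vehicle-treated MDPs, 9.34 and 8.40 in MDPs with GSI, 9.28 and 9.24 in vehicle-treated CDPs and 9.93 and 8.55 in CDPs with GSI. With the IkL/L genotype, *Ngp* measured 11.96 and 11.94 in vehicle-treated MDPs, 11.92 and 11.49 in MDPs with GSI, 12.26 and 11.74 in vehicle-treated CDPs and 12.15 and 11.39 in CDPs with GSI. The genotypes did not overlap, and the IkL/L values were the tighter group. The averaged effect on *Ngp* was 2.56 ± 0.23 (SE) on the log2 scale, or 5.89-fold (adjusted p = 1.67e-04, limma). *Lcn2* encodes lipocalin 2 (NGAL), which binds bacterial siderophores and is stored in specific granules. *Lcn2* signals in WT arrays were 9.30 and 9.89 in vehicle-treated MDPs, 10.05 and 10.51 in MDPs with GSI, 8.98 and 9.24 in vehicle-treated CDPs and 9.73 and 7.61 in CDPs with GSI. In IkL/L arrays *Lcn2* reached 11.59 and 11.54 in vehicle-treated MDPs, 11.57 and 11.31 in MDPs with GSI, 11.97 and 11.30 in vehicle-treated CDPs and 11.82 and 10.64 in CDPs with GSI. Here the gap between genotypes was narrow, with a highest WT value of 10.51 in GSI-treated MDPs and a lowest IkL/L value of 10.64 in GSI-treated CDPs. The averaged effect on *Lcn2* was 2.05 ± 0.29 (SE) on the log2 scale, or 4.15-fold (adjusted p = 0.00254, limma), and no single pair of groups was called for this gene.

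*Mmp8*, the neutrophil collagenase, is also a specific granule product, but its level did not separate the genotypes. Its WT signals were 10.46 and 10.86 in vehicle-treated MDPs, 10.44 and 11.56 in MDPs with GSI, 11.66 and 10.70 in vehicle-treated CDPs and 11.75 and 10.17 in CDPs with GSI. The IkL/L signals of *Mmp8* were 10.74 and 10.86 in vehicle-treated MDPs, 11.29 and 11.32 in MDPs with GSI, 11.52 and 10.62 in vehicle-treated CDPs and 11.48 and 10.60 in CDPs with GSI. The ranges of the genotypes overlapped almost fully, and both held arrays above 11.5. The averaged effect was 0.10 ± 0.28 (SE) on the log2 scale, or 1.07-fold (adjusted p = 0.897, limma), with a 95% interval from -0.52 to 0.72, and its sign turned to -0.21 without array 2 of both WT CDP groups.

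The sequences upstream of 5 of these granule genes are shown because *Ltf*, *Camp*, *Ngp* and *Lcn2* moved together and *Mmp8* did not. Each is the 250 bases before the RefSeq start site on the gene's own strand (GRCm38.p6), at chr9:111019042-111019291 (plus strand) for *Ltf*, chr9:109849457-109849706 (minus strand) for *Camp*, chr9:110419558-110419807 (plus strand) for *Ngp*, chr2:32387740-32387989 (minus strand) for *Lcn2* and chr9:7558179-7558428 (plus strand) for *Mmp8*, with capitals for TTGCNNAA on either strand, a form of the C/EBP recognition site.
Ltf: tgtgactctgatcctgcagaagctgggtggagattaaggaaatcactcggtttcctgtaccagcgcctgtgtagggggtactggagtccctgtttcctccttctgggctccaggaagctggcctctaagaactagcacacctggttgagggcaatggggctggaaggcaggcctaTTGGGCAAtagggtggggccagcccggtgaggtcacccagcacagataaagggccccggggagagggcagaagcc
Camp: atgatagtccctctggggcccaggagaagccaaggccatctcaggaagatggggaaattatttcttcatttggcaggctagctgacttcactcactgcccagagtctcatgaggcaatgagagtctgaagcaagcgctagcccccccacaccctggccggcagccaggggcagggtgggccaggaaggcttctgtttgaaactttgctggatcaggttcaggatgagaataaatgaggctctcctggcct
Ngp: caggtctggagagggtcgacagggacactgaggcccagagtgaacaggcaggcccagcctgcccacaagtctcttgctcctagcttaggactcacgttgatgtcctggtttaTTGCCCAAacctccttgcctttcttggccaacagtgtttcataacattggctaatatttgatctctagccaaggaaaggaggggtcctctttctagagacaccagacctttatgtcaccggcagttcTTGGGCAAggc
Lcn2: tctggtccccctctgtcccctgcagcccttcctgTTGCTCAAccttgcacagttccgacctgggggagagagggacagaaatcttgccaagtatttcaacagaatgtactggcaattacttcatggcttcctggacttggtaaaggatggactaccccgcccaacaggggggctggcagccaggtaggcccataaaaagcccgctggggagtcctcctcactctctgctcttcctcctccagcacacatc
Mmp8: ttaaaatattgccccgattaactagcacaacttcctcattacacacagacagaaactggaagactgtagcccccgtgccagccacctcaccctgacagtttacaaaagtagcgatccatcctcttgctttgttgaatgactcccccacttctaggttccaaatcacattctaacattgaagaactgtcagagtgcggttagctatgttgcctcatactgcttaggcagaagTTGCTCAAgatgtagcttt
Such a window was found for 9 of the 10 genes, with no entry for *Mmp9*. TTGCNNAA occurred in 6 of the 9 (*Ltf*, *Ngp* with 2 matches, *Lcn2*, *Mmp8*, *Retnlg* and *S100a9*) and in 9.56% of the 32851 windows of all genes. It was found upstream of *Mmp8*, and not in the window of *Camp*, which had the lowest adjusted p of the 10. A looser form, TTNNGNAA, which includes every match of the first, was in 8 of the 9 and in 36.8% of all windows. The other motifs searched were TGGGAA, a core bound by Ikaros (2 of the 9, *S100a9* and *Chil3*, and 21.6% of all), GAGGAA, a core bound by PU.1 (4 of the 9 and 23.3%), TATAAA (1 of the 9, *S100a8*, and 12.4%) and CCAAT (4 of the 9 and 33.8%). In *Ltf* the CCAAT match overlaps the TTGCNNAA match. All matches, on both strands, are descriptions of letters in these windows, and none of the arrays measured binding.

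S100A8 and S100A9 form calprotectin, which sequesters zinc and manganese and acts as a danger signal. *S100a9* signals were 11.79 and 11.28 in vehicle-treated MDPs, 11.65 and 11.15 in MDPs with GSI, 11.04 and 11.40 in vehicle-treated CDPs and 11.70 and 11.02 in CDPs with GSI in WT arrays. In IkL/L arrays they were 12.68 and 12.60 in vehicle-treated MDPs, 12.58 and 12.44 in MDPs with GSI, 12.72 and 12.59 in vehicle-treated CDPs and 12.68 and 12.46 in CDPs with GSI. All 8 IkL/L arrays fell within 12.44 to 12.72, above the WT range of 11.02 to 11.79. The averaged rise of *S100a9* was 1.22 ± 0.12 (SE) on the log2 scale, or 2.33-fold (adjusted p = 2.99e-04, limma). For its partner *S100a8* the WT signals were 12.31 and 12.31 in vehicle-treated MDPs, 12.31 and 12.13 in MDPs with GSI, 11.86 and 12.27 in vehicle-treated CDPs and 12.09 and 11.09 in CDPs with GSI. The IkL/L signals were 12.69 and 12.67 in vehicle-treated MDPs, 12.62 and 12.61 in MDPs with GSI, 12.74 and 12.62 in vehicle-treated CDPs and 12.65 and 12.49 in CDPs with GSI. The genotypes again did not overlap, but the step was small, and both genes lie near the top of the table, whose highest value is 13.46. The averaged rise of *S100a8* was 0.59 ± 0.13 (SE) on the log2 scale, or 1.5-fold (adjusted p = 0.0211, limma), and this call was lost on leaving out any of 5 single IkL/L arrays (array 1 of each of the 4 IkL/L groups and array 2 of GSI-treated MDPs), with adjusted p values up to 0.0559.

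*Mmp9*, gelatinase B, marks gelatinase granules, and *Retnlg*, which encodes a resistin-like protein of mature neutrophils, is often listed with it. WT arrays held *Mmp9* at 3.97 and 3.98 in vehicle-treated MDPs, 3.997 and 3.92 in MDPs with GSI, 3.80 and 4.20 in vehicle-treated CDPs and 4.12 and 4.39 in CDPs with GSI. The IkL/L values of *Mmp9* were 4.16 and 5.32 in vehicle-treated MDPs, 4.47 and 4.38 in MDPs with GSI, 7.83 and 6.49 in vehicle-treated CDPs and 7.97 and 5.82 in CDPs with GSI. The 4 IkL/L CDP arrays, from 5.82 to 7.97, were above all 12 other arrays, while IkL/L MDPs overlapped WT. The averaged effect on *Mmp9* was 1.76 ± 0.31 (SE) on the log2 scale, or 3.38-fold (adjusted p = 0.00832, limma). *Retnlg* signals in WT cells were 4.85 and 6.32 in vehicle-treated MDPs, 4.77 and 6.24 in MDPs with GSI, 5.04 and 7.51 in vehicle-treated CDPs and 7.03 and 7.86 in CDPs with GSI. In IkL/L cells *Retnlg* gave 6.29 and 8.59 in vehicle-treated MDPs, 6.95 and 5.93 in MDPs with GSI, 10.49 and 9.28 in vehicle-treated CDPs and 10.25 and 8.96 in CDPs with GSI. Replicates of *Retnlg* differed by up to 2.47 on the log2 scale, and IkL/L MDPs again overlapped WT, whereas the 4 IkL/L CDP arrays were above all others. The averaged effect on *Retnlg* was 2.14 ± 0.50 (SE) on the log2 scale, or 4.40-fold (adjusted p = 0.0312, limma), a call kept in 7 of the 16 fits that each left out 1 array and lost in the other 9, with adjusted p values up to 0.0812. All 4 IkL/L CDP arrays were above the other 12 in 2.65% of all genes.

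*Chil3* encodes the chitinase-like lectin Ym1, made by neutrophil precursors and by some macrophages. Its WT signals were 10.64 and 11.02 in vehicle-treated MDPs, 10.27 and 10.66 in MDPs with GSI, 10.18 and 10.28 in vehicle-treated CDPs and 10.36 and 6.10 in CDPs with GSI. IkL/L arrays had *Chil3* at 11.81 and 11.54 in vehicle-treated MDPs, 11.68 and 11.48 in MDPs with GSI, 11.52 and 10.60 in vehicle-treated CDPs and 11.40 and 10.52 in CDPs with GSI. Array 2 of GSI-treated WT CDPs, at 6.10, stood far below all other arrays. The averaged effect on *Chil3* was 1.38 ± 0.49 (SE) on the log2 scale, or 2.61-fold (adjusted p = 0.156, limma). Without that array it was 0.85 with an adjusted p of 0.0223, and without array 1 of the same group 1.91 with an adjusted p of 3.22e-04. The sequence of *Chil3* is nearly shared by *Chil4*, so its probes may read both. The separate *Chil4* probe set gave 3.48 to 3.99 in WT and 3.64 to 4.13 in IkL/L arrays (log2 change 0.29, adjusted p = 0.0981).

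The genotype effect was then taken in each stage and treatment. In vehicle-treated CDPs, *Ltf*, *Camp*, *Ngp*, *Mmp9* and *S100a9* rose, 5 of the 10 genes against 0.933% of all genes called higher. *Ltf* was 25.3-fold higher there (log2 4.66 ± 0.54 SE, adjusted p = 0.00204) and *Camp* 13.3-fold (3.73 ± 0.41, adjusted p = 0.00148). The median log2 change of the 10 genes was 2.63. *Ltf* and *Camp* were called again whichever single array was left out. Without any 1 of the 4 arrays compared, only these 2 genes of the 10 were called, and *Mmp9* (log2 3.16, adjusted p = 0.0428) was called in 2 of the 16 such fits.

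In GSI-treated CDPs 4 of the 10 genes rose (*Ltf*, *Camp*, *Ngp* and *S100a9*), against 1.35% of all genes. *Ltf* was 12.9-fold and *Camp* 10.9-fold higher (adjusted p = 0.00631 and 0.00172), and the median log2 change of the 10 was 2.55. The count was 2 without array 2 of GSI-treated WT CDPs or without array 1 of GSI-treated IkL/L CDPs, and 7 without array 1 of GSI-treated WT CDPs. It was 1, *Camp*, without array 2 of both WT CDP groups. The call on *S100a9* held in 7 of the 16 fits that left out 1 array. It was lost without array 2 of GSI-treated WT CDPs and without any 1 of the 8 IkL/L arrays, with adjusted p values up to 0.220. That on *Ngp* was lost in 3 of the 16, without array 2 of GSI-treated WT CDPs or either array of GSI-treated IkL/L CDPs, with adjusted p values up to 0.171.

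Fewer genes passed in MDPs. In vehicle-treated MDPs *Ltf* (12.9-fold, adjusted p = 0.0424) and *Camp* (11.2-fold, adjusted p = 0.0138) rose, 2 of 10 against 0.105% of all genes. Leaving out either array of IkL/L or WT vehicle-treated MDPs left 0 calls among the 10. The count was 1 on leaving out any 1 array of GSI-treated MDPs of either genotype, of either WT CDP group or of vehicle-treated IkL/L CDPs. In GSI-treated MDPs *Camp* alone rose (18.7-fold, adjusted p = 0.00425), 1 of 10 against 0.11% of all genes, and it was not called without array 1 of GSI-treated IkL/L MDPs. The count was 2 without array 2 of GSI-treated WT MDPs, without any 1 array of GSI-treated CDPs of either genotype, or without array 2 of both WT CDP groups. *Ltf* had a log2 change of 3.43 in GSI-treated MDPs with an adjusted p of 0.0559. The median log2 change of the 10 genes was 1.48 in vehicle-treated and 1.11 in GSI-treated MDPs.

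**Figure D2:**
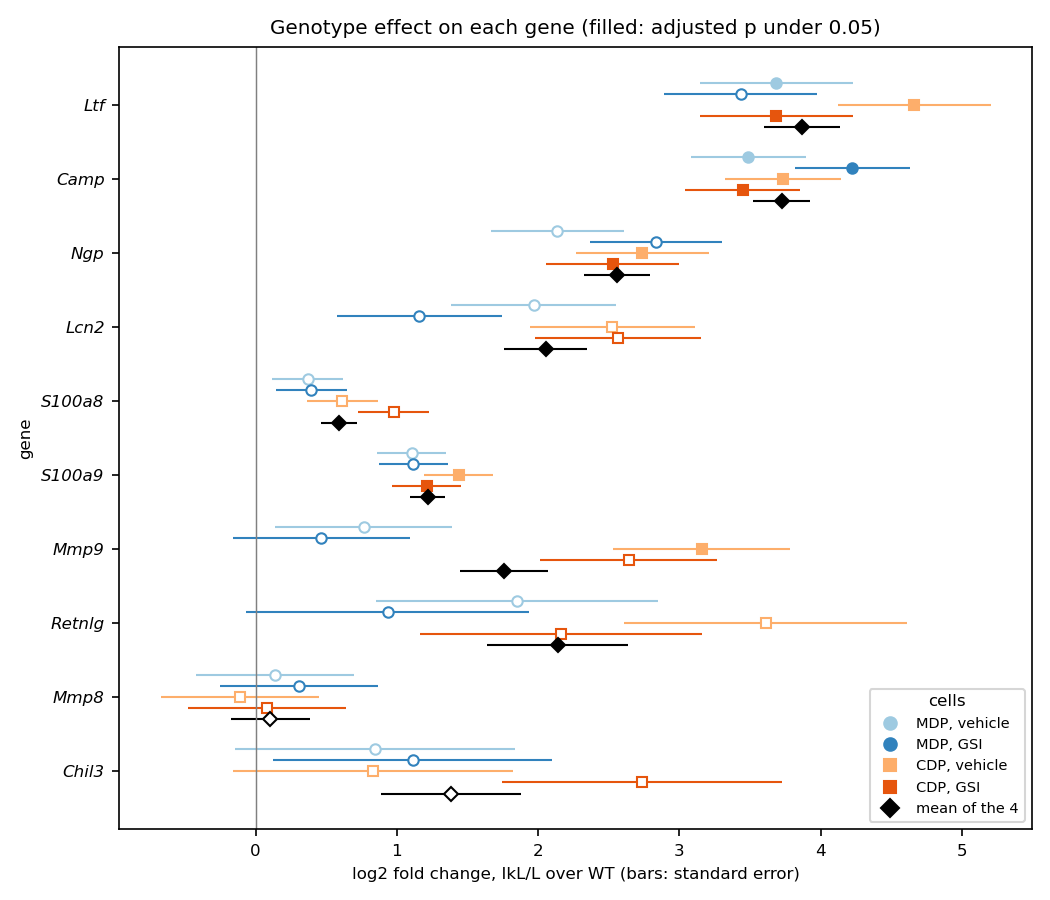
Log2 fold change of IkL/L over WT (x axis) with its standard error for each of the 10 genes (y axis), in MDPs (circles) and CDPs (squares) with vehicle (light) or GSI (dark) and as the mean of the 4 (black diamonds). Filled symbols have an adjusted p under 0.05; *Ltf* and *Camp* lie at 3.43 to 4.66 in every setting, *Mmp9* lies at 3.16 and 2.64 in CDPs and at 0.76 and 0.47 in MDPs, and *Mmp8* stays close to 0.

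Whether the genotype effect differed between CDPs and MDPs was tested directly. The estimates were larger in CDPs for 8 of the 10 genes and for 9548 of all 19938. The median difference of the 10 was 0.51 on the log2 scale, but 0 of the 10 were called and 0.401% of all genes were called higher. By unadjusted p under 0.05, 1 of the 10 passed, against 1282 of all 19938 genes. The 1 of the 10 was *Mmp9*, with a difference of 2.28 ± 0.63 (SE; unadjusted p = 0.00419, adjusted p = 0.263, limma). The higher *Mmp9* and *Retnlg* values of IkL/L CDPs over IkL/L MDPs did not pass the test either. CDPs against MDPs gave *Mmp9* log2 changes of 2.42 with vehicle and 2.47 with GSI (adjusted p = 0.103 and 0.0798), and *Retnlg* 2.45 and 3.16 (adjusted p = 0.384 and 0.177).

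No stage effect on any of the 10 was called by limma. In vehicle-treated IkL/L cells 0 were called, against 1.28% of all genes called higher in CDPs. With GSI 0 were called in IkL/L cells (2.42% of all genes called in either direction). In WT cells 0 were called with vehicle (0.0953%) and 0 with GSI (0.176%). By unadjusted p under 0.05 (limma), 2 of the 10 passed in vehicle-treated IkL/L cells, against 2129 of all 19938 genes. With GSI 3 passed in IkL/L cells, against 2362 of all genes. In WT cells 0 passed with vehicle, against 1072, and 3 with GSI, against 1589. *Camp*, *Ngp*, *Lcn2*, *S100a8* and *S100a9* differed by less than 0.25 between IkL/L CDPs and IkL/L MDPs under either treatment, with no call.

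γ-Secretase inhibition gave no call on any of the 10 genes either. In IkL/L CDPs all 10 estimates were below 0, from -0.55 for *Ltf* to -0.03 for *Mmp8* with a median of -0.24. None had an unadjusted p under 0.05, and 0.00502% of all genes were called. In IkL/L MDPs 9 of 10 estimates were below 0, again with 0 genes at an unadjusted p under 0.05, and 0% of all genes were called. WT MDPs had 8 of 10 below 0 (0% of all genes called), and WT CDPs 6 of 10 (0.01% called). By unadjusted p under 0.05 (limma), 1 of the 10 passed in WT MDPs (*Camp*, -1.19), against 1350 of all 19938 genes. In WT CDPs none passed, against 818 of all genes. Estimates below 0 were found for 9270 of all genes in IkL/L CDPs, 9342 in IkL/L MDPs, 8505 in WT MDPs and 9478 in WT CDPs. Averaged over the 4 populations, 9 of the 10 estimates were below 0, as were 8520 of all 19938. The median of the 10 was -0.14, and 0.306% of all genes were called. *Camp* came nearest to a call at -0.54 ± 0.20 (SE; unadjusted p = 0.0230, adjusted p = 0.344). The genotype effect did not differ between GSI and vehicle by a call in any of the 10 genes (0 at an unadjusted p under 0.05; 0% of all genes called), with differences from -1.18 for *Retnlg* to 1.08 for *Chil3*.

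In some groups the 2 arrays differed in the same direction over most of the 10 genes. In IkL/L CDPs array 1 was above array 2 for 10 of 10 genes with vehicle (median difference 0.83 on the log2 scale) and for 10 of 10 with GSI (median 1.01). Over all genes array 1 was the higher in 51.6% and 46.5%. Array 1 was the higher for 9 of 10 genes in GSI-treated IkL/L MDPs (median difference 0.22), 8 of 10 in GSI-treated WT CDPs (0.84) and 2 of 10 in vehicle-treated WT CDPs (-0.31). The genes split about evenly in the other groups, with 6 of 10 in vehicle-treated IkL/L MDPs (0.02), 4 of 10 in vehicle-treated WT MDPs (-0.19) and 5 of 10 in GSI-treated WT MDPs (-0.16). In the mean log2 signal of the 10 genes, array 2 of vehicle-treated WT CDPs (8.90) lay within the other WT arrays (8.08 to 9.13). It differed from array 1 in other genes, with *Mpo*, myeloperoxidase, at 11.67 and *Elane*, neutrophil elastase, at 9.60, where array 1 had 7.85 and 6.14. Among the 10 genes, array 2 of GSI-treated WT CDPs was the lowest of all 16 in *Chil3*, *Lcn2*, *Mmp8*, *S100a8* and *S100a9*. In *Mmp9* (4.39) and *Retnlg* (7.86) the same array was instead the highest of the 8 WT arrays. Outside the 10 genes it was the lowest of all 16 in *Hp*, which encodes haptoglobin, at 8.92. *Mpo*, *Elane* and *Hp* were chosen after their values were seen. Without both of these arrays the averaged genotype effect was called in 9 of the 10 genes, all but *Mmp8*.

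Other late neutrophil genes were read from a list of 28, of which 24 were measured. In the averaged genotype effect 14 of the 24 rose and none fell, with a median log2 change of 0.92, against 3.85% of all genes called higher. Estimates below 0 without a call were found for 3 of the 24, at -0.35 for *Csf3r*, the G-CSF receptor gene (adjusted p = 0.629), -0.28 for *Slpi*, which encodes a protease inhibitor (adjusted p = 0.653), and -0.16 for *Hp* (adjusted p = 0.868). These 3 were looked up for their sign. *Mmp25*, a membrane-anchored metalloproteinase of neutrophils, was 4.03-fold higher (log2 2.01, adjusted p = 9.79e-06), *Anxa1*, annexin A1, was 1.96-fold higher (0.97, adjusted p = 3.29e-04) and *Pglyrp1*, a peptidoglycan-binding granule protein, was 6.47-fold higher (2.69, adjusted p = 5.37e-04). *Mmp25* shared the pattern of *Mmp9*. It lay between 7.72 and 8.60 in IkL/L CDPs and between 4.13 and 4.77 in all other arrays. The genotype effect was called larger in CDPs than in MDPs for 1 of the 24, against 0.401% of all genes (limma). In IkL/L cells, 2 of the 24 were called higher in CDPs than MDPs with vehicle and 3 with GSI, against 255 and 329 of all 19938 genes. In WT cells 1 was called higher with vehicle and 0 with GSI, against 19 and 33 of all genes. In vehicle-treated CDPs 6 of the 24 rose, against 0.933% of all genes. In vehicle-treated MDPs 0 of the 24 were called, against 0.105% of all genes, and 8 of the 24 and 879 of all 19938 genes had an unadjusted p under 0.05 in either direction (limma). *Ly6g*, the surface marker by which mature mouse neutrophils are sorted and a gene looked up after its values were seen, was 7.79 and 5.85 in vehicle-treated and 7.07 and 4.75 in GSI-treated IkL/L CDPs, and at most 4.51 in all other arrays.

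Azurophil granule genes, made at an earlier stage of maturation, were read next. Of the 11 genes listed, only *Fcnb*, which encodes ficolin B, a recognition protein of the lectin complement pathway, rose in the averaged genotype effect (5.56-fold, log2 2.47, adjusted p = 3.02e-04, limma). Of all genes 3.85% were called higher, and the median log2 change of the 11 was -0.10. Which granule holds ficolin B, or any other listed product, was not measured. *Fcnb* is counted with its list, and its rise is not read as one of the whole list. By stage, *Mpo*, *Elane*, *Prtn3* and *Ctsg*, the gene for cathepsin G, fell in IkL/L CDPs against IkL/L MDPs with vehicle and again with GSI, 4 of 11 each time, and none rose. Of all genes, 0.426% were called lower with vehicle and 0.767% with GSI. In WT cells 0 of the 11 were called by stage, but 9 of 11 estimates were lower in CDPs with vehicle and 11 of 11 with GSI. At an unadjusted p under 0.05 in either direction (limma), 5 and 6 of the 11 passed in WT cells, against 1072 and 1589 of all 19938 genes. *Mpo* was 11.37 to 12.31 in the 4 IkL/L MDP arrays and 6.56 to 7.78 in the 4 IkL/L CDP arrays. *Ltf* and *Camp* were thus high in IkL/L MDP arrays with high *Mpo* and in IkL/L CDP arrays with low *Mpo*.

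**Figure D3:**
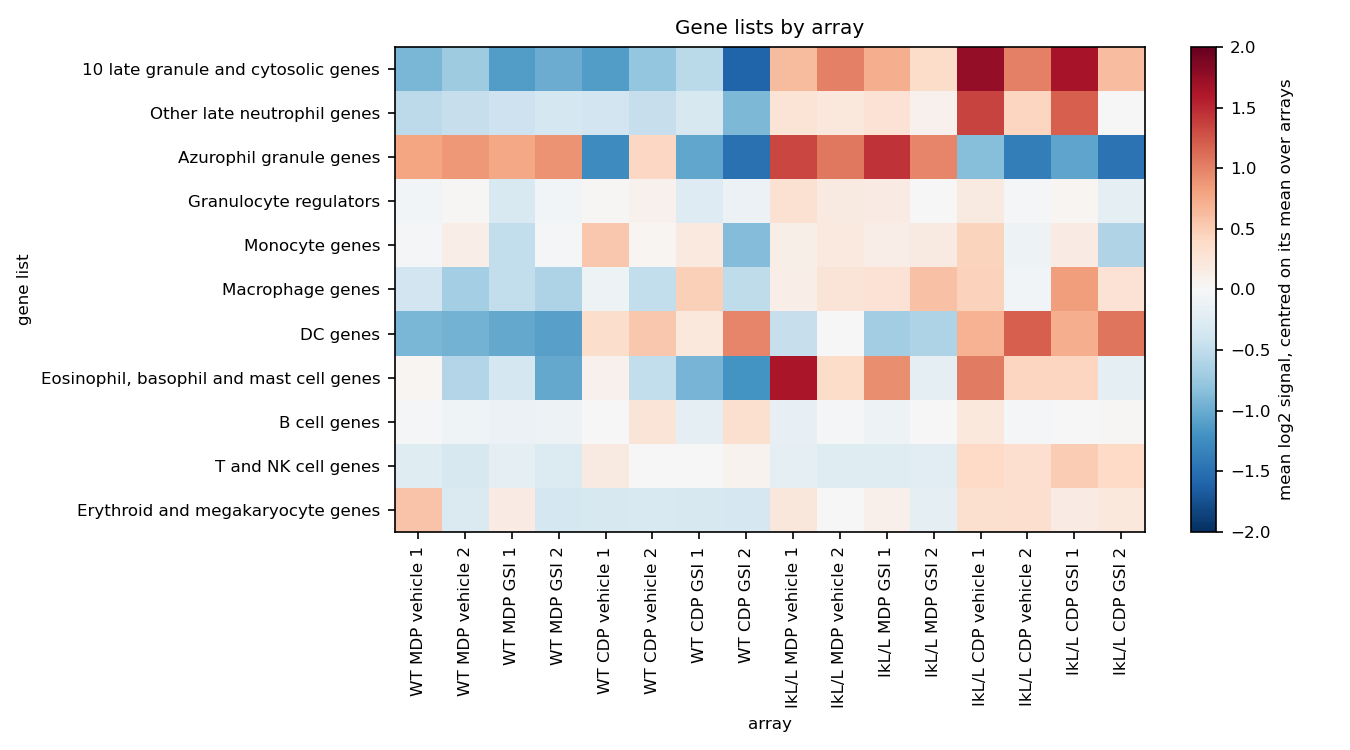
Mean log2 signal of each gene list (rows), minus that list's mean over the 16 arrays, in every array (columns), with red above and blue below the mean. The 10 late granule and cytosolic genes are red in all 8 IkL/L arrays and blue in all 8 WT arrays, while azurophil granule genes are red in all MDP arrays of both genotypes and in 1 of the 8 CDP arrays, array 2 of vehicle-treated WT CDPs.

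Among 11 granulocyte regulators 3 rose in the averaged effect, against 3.85% of all genes called higher. *Cebpe*, which encodes C/EBPε, was 2.16-fold higher (log2 1.11, adjusted p = 0.0190), *Cebpa*, which encodes C/EBPα, the factor of granulocyte commitment, was 1.26-fold higher (0.34, adjusted p = 0.00683) and *Klf5*, which encodes a zinc-finger factor, was 1.33-fold higher (0.41, adjusted p = 0.0195). *Cebpe* lay between 5.35 and 6.46 in WT and between 5.96 and 7.60 in IkL/L arrays, so that the genotypes overlapped. Of 9 measured partners of the 10 proteins (receptors and inhibitors), *Timp1*, which encodes an inhibitor of MMP9, rose by 0.90 on the log2 scale (adjusted p = 0.00387), and it was highest in GSI-treated IkL/L CDPs at 6.33 and 7.38.

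Marker lists of other cells that the sorted fraction could hold were read the same way in the averaged genotype effect. In that effect 3.85% of all genes were called higher. Calls, all higher in IkL/L cells, were made in 2 of 11 monocyte genes (*Cd14* and *S100a4*), 1 of 10 macrophage genes (*Mrc1*), 2 of 11 DC genes (*Cd209a* and *Itgax*), 3 of 9 eosinophil, basophil and mast cell genes (*Mcpt8*, *Prss34* and *Prg2*), 0 of 8 B cell genes (also 0 at an unadjusted p under 0.05, limma), 1 of 8 T and NK cell genes (*Il7r*) and 1 of 8 erythroid and megakaryocyte genes (*Ppbp*). The globin genes of the erythroid list had no probe set of their own. The largest log2 changes among these were 2.57 for *Mcpt8*, a basophil protease, and 2.57 for *Mrc1*, the mannose receptor of macrophages. Summed signals are led by the genes of highest signal in a list, and are read between arrays of the same list, not between lists. The log2 of the summed signal over the 10 late genes ran from 12.69 to 13.85 in WT and from 14.40 to 15.17 in IkL/L arrays. For the other late neutrophil genes it ran from 11.96 to 13.45 and from 12.68 to 13.95, so that the genotypes overlapped. For eosinophil, basophil and mast cell genes it ran from 7.94 to 9.93 and from 9.55 to 12.17, for monocyte genes from 13.98 to 14.67 and from 14.23 to 14.58, for macrophage genes from 10.85 to 11.95 and from 11.26 to 12.25, and for DC genes from 9.15 to 11.65 and from 9.64 to 12.04. B cell genes gave 8.10 to 8.96 and 8.45 to 8.82, T and NK cell genes 6.83 to 8.20 and 6.92 to 8.70, and erythroid and megakaryocyte genes 7.20 to 8.56 and 7.36 to 8.38. Whether cells of any of these kinds, or CD45.1+ support cells carried through the second sort, contributed to the late neutrophil signal was not tested.

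Genes whose pattern was most like that of the 10 were sought among 3605 other genes that spanned at least 1 log2 unit, by Pearson's r with the mean centred profile of the 10 over the 16 arrays. The arrays share their groups, so r is given as a description. The 10 nearest were *Orm1* (0.96), *Anxa1* (0.95), *Cxcr2* (0.94), *Pglyrp1* (0.94), *Itgb2l* (0.93), *Olfm4* (0.92), *Cdh5* (0.92), *Scarf1* (0.91), *Nrp2* (0.91) and *Wfdc21* (0.91). Of these, 6 (*Anxa1*, *Cxcr2*, *Pglyrp1*, *Itgb2l*, *Olfm4* and *Wfdc21*) stood in the list of other late neutrophil genes, of which 24 were measured. That list and the 10 genes were chosen with earlier results of these data known, so the overlap too is only a description. *Orm1*, which encodes the acute-phase protein orosomucoid, ran from 4.49 to 5.06 in WT and from 6.18 to 8.18 in IkL/L arrays. *Cxcr2*, the chemokine receptor of mature neutrophils, ran from 5.18 to 6.17 and from 6.56 to 8.93. *Cdh5*, which encodes VE-cadherin, ran from 4.18 to 4.45 and from 5.47 to 6.83.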

How the data were processed

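Arrays were Affymetrix Mouse Gene ST 1.0 chips. The log2 values were made by the authors with RMA in Affymetrix Expression Console 1.4.1, per the labels, from amplified cDNA, and were deposited as 1 table. The lowest value is 2.55 and the highest 13.46, and medians of single arrays lie between 4.52 and 4.65. Precision is limited by the number of arrays, and amplification of small inputs can add spread. Neither background signals nor the genome build of the probes was used here.

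Arrays were grouped by their labels. Of 28188 probe sets, 21789 carry 1 symbol, 1621 several and 4778 none. Genes were the 19938 symbols of the first, with the probe set of highest mean kept. A model of 8 group means was fitted to 16 arrays with limma 3.58.1 in R 4.3.3 (8 residual and 2.35 prior degrees of freedom), with two-sided moderated tests and Benjamini-Hochberg adjustment over all genes. The fit was tested on simulated data. Alternatives were a replicate block, fits of the compared groups alone, quantile normalization, a filter on signal, means over probe sets, trended robust variances, and leaving out arrays. The 10 genes, the marker lists and the motifs were chosen with earlier results of these data known. Named genes outside the 10 were those of lowest adjusted p in each list, all called ones where 5 or fewer, and the 10 of most similar profile, plus a few said to be chosen after their values were seen. Upstream sequences are from RefSeq (GRCm38.p6).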

Additional observations from a re-analysis of the deposited data

How the results depend on the processing

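For the averaged genotype effect, between 6 and 9 of the 10 genes were called when 1 array was left out, and 9 without array 2 of both WT CDP groups, an alternative chosen after seeing the data. *Mmp8* had no settled sign, with values from -0.094 to 0.30 when 1 array was left out and -0.21 without array 2 of both WT CDP groups. Leaving out 1 array gave 2 to 5 calls in vehicle-treated CDPs, 2 to 7 in GSI-treated CDPs, 0 to 2 in vehicle-treated MDPs and 0 to 2 in GSI-treated MDPs. Without array 1 of GSI-treated WT CDPs, 3 genes were called between WT stages under GSI (otherwise 0), 1 for GSI in WT CDPs (otherwise 0) and 1 for the averaged GSI effect (otherwise 0). For the stage effect in IkL/L cells the range was 0 to 1 with vehicle, where the call came without either array of GSI-treated IkL/L CDPs, and 0 to 1 with GSI, where it came without array 2 of that group. The same array gave the range of 0 to 1 for the difference of the genotype effect between CDPs and MDPs.

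Fits of only the groups compared called 0 of the 10 in vehicle-treated CDPs, 0 in GSI-treated CDPs, 1 in vehicle-treated MDPs and 0 in GSI-treated MDPs, and with 2 residual degrees of freedom they called 4, 0, 7 and 0 of all genes. In GSI-treated MDPs the count of 1 became 2 with the replicate block, 2 with quantile normalization, 3 with the filter on signal, 2 with trended robust variances and 2 without array 2 of both WT CDP groups. The filter also gave 1 call for the stage effect in GSI-treated IkL/L cells. Without array 2 of both WT CDP groups there was 1 call in GSI-treated CDPs and 1 in vehicle-treated MDPs. Where the cause is not stated, it was not tested.

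Replicate numbers do not pair the samples by the labels. Deviations of equally numbered arrays correlated at -0.25 to 0.66 over 28 pairs of groups, 17 of them over 0.1, and 7 of 8 groups had a positive mean correlation with the others. The replicate block changed no other count by over 1.5 times.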
